A study of Homo sapiens with 8 samples.

Results

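The di-nucleosome peaks of HA-tagged LSF are the genomic regions in which DNA of di-nucleosome size, recovered by chromatin immunoprecipitation (ChIP) through the HA tag, exceeded the input DNA of the same size. They were taken as all 429 rows of the authors' di-nucleosome peak list, without 1 row on chromosome 11 that ends past the end of that chromosome, which left 428 peaks. The 429 rows and the 1983 rows of the mono-nucleosome list make up the 2412 rows of the series. The series holds 8 libraries, 1 for each combination of inducer, ChIP or input, and fragment size. The 428 peaks compare 2 of them, LSF+ IP and LSF+ Input, di-nucleosome, and the mono-nucleosome list compares the corresponding 2 libraries of shorter fragments. Both lists come from a stable line derived from HEK293T, an established human embryonic kidney cell line, which carried HA-tagged LSF and was grown for 24 h in medium with 5 μM of the inducing ligand RSL1. The input libraries carry the same inducer label as the ChIP libraries. The labels are not free of conflict: the treatment text names the ligand for all 8 libraries, also those with DMSO as inducer, and the antibody is listed for the input libraries too, so that ChIP and input were told apart by the sample titles and descriptions. The 4 LSF- libraries, whose inducer is labelled DMSO, were not analysed here. The antibody recognised the tag on LSF expressed from an introduced construct and not the LSF of the cell's own gene, and the sources used here do not say whether the line is 1 clone. Since no condition had a second library, no value below has a replicate and no difference between conditions was tested.

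LSF, encoded by TFCP2, is a widely expressed transcription factor that binds DNA as an oligomer at paired short half-sites. Micrococcal nuclease cuts chromatin mainly in the linker DNA between nucleosomes, so that a mono-nucleosome fragment carries the DNA of a single nucleosome and a di-nucleosome fragment that of a neighbouring pair with the linker between them. A factor bound within or beside a linker can therefore be recovered in either size class, and the longer fragments place it less sharply. The sequence of the peaks is not shown, because the genome of the peak lists' build, hg19, was not used here, and for the same reason no gene was assigned to a peak. Positions are in hg19, counted from 1, with the cytogenetic band of the peak's midpoint. Each peak also carries the score of the peak caller MACS, whose lowest value in the list was 50.01; its scale is not named in the sources used here. Neither list gives read counts, so the depth behind a peak is unknown. Scores of the 2 lists were set by separate libraries and are placed side by side below without a test.

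Most di-nucleosome peaks were narrow and weak, and a small number were very broad. The median width was 1294 bp, with an interval from 1249 to 1347 bp (95%, from the ranks of the widths, counting error only). The middle of the distribution lay between 1115 bp (25th percentile) and 1783 bp (75th percentile). The narrowest peaks, of 733, 750 and 762 bp, lay in 22q13.2, 1q43 and 11p11.2 and scored 58.1, 64.1 and 56.1. Of the 428 peaks, 53 were under 1 kb, 296 were from 1 to under 2 kb, 67 were from 2 to under 5 kb, and 12 were 5 kb or wider. The 12 very broad peaks made up 2.80% of the peaks and 13.4% of the 723 kb that all peaks covered. Of the 1983 mono-nucleosome peaks, 2 were 5 kb or wider. Their median width was 557 bp, so that 5 kb lay further from the typical width in that list.

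The width classes differed in score. The median score was 55.8 for peaks under 1 kb, 55.5 from 1 to under 2 kb, 83.4 from 2 to under 5 kb and 261 at 5 kb or more. Scores below 60 were held by 77.4% of the peaks under 1 kb and by 1 of the 12 very broad peaks. No peak under 1 kb scored above 72.8. Over all 428 peaks, width and score gave a Spearman's rho of 0.47, over the 356 that overlapped no mono-nucleosome peak it was 0.27, and over the 72 that overlapped one it was 0.76. The median scores of the last 2 groups were 55.8 and 101, the first close to the lowest score of 50.01. Their values of rho thus rest on unlike spreads of score. Each rho is a description over peaks, which share their 2 libraries and are not replicates, and width is itself set by the caller from the same reads as the score.

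**Figure D1:**
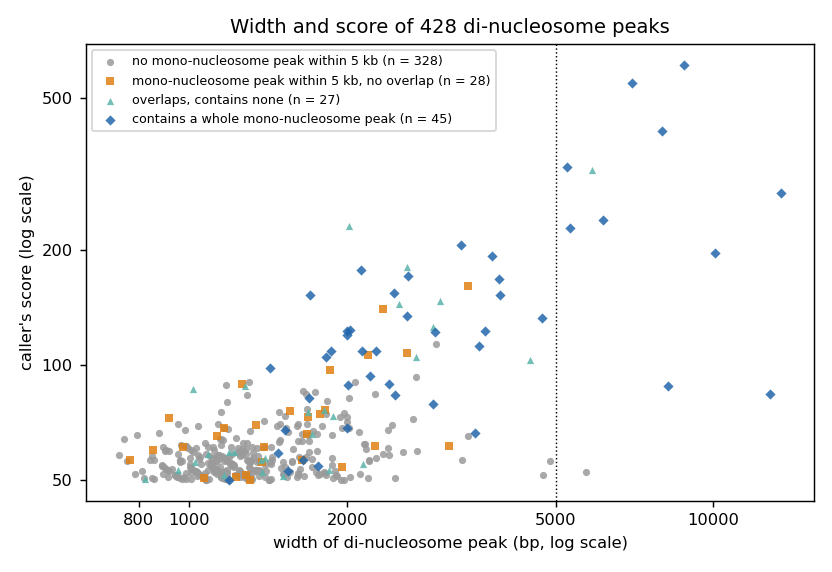
Width (bp, log scale) against the caller's score (log scale) for the 428 di-nucleosome peaks, each point 1 peak, marked by its relation to the mono-nucleosome peaks; the dotted line is at 5 kb. The 12 peaks right of the line include 10 that contain a whole mono-nucleosome peak, and most of the 328 peaks with no mono-nucleosome peak within 5 kb lie at the narrow, low-scoring end.

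The 12 very broad peaks lay on 7 chromosomes, with 4 on chromosome 6. Their order by width began with a peak of 13480 bp in 16p13.3 (chr16:3228956-3242435, score 282), followed by 12844 bp in 17p13.1 (chr17:8120903-8133746, score 84.2) and 10058 bp in 6p22.2 (chr6:26314800-26324857, score 197). The next were 8777 bp in 1q21.1 (chr1:145392941-145401717, score 612), 8184 bp in 11q12.1 (chr11:59325722-59333905, score 87.9) and 7985 bp, again in 16p13.3 (chr16:3200457-3208441, score 409). They were followed by 7003 bp in 5q35.3 (chr5:180612207-180619209, score 548), 6168 bp in 6p22.2 (chr6:26570094-26576261, score 239) and 5866 bp in 6p22.2 (chr6:26308741-26314606, score 325). The last 3 were 5716 bp in 19q13.2 (chr19:40056715-40062430, score 52.6), 5322 bp in 5q35.3 (chr5:180645361-180650682, score 229) and 5250 bp in 6p22.1 (chr6:28756997-28762246, score 331).

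Of these 12 peaks, 8 were among the 10 highest scores of the list. The exceptions were the peaks in 6p22.2 of 10058 bp, which ranked 11th, in 11q12.1 and 17p13.1, which ranked 53rd and 57th, and in 19q13.2, which ranked 310th of 428. Width and score were thus not interchangeable at the broad end: the 17p13.1 peak, of 12844 bp, scored 84.2, and the 6p22.1 peak, of 5250 bp, scored 331.

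The boundary at 5 kb separated peaks of both kinds. The 5 narrowest above it were those in 6p22.1, 5q35.3, 19q13.2 and 6p22.2 of 5250 to 6168 bp. Just below it lay peaks of 4878 bp in 19q13.11 (score 55.9), 4739 bp in 1q42.2 (score 51.6), 4718 bp in 6p22.2 (score 133), 4469 bp in 6p22.2 (score 103) and 3921 bp in 6p22.1 (score 153). The 3 peaks in 6p22 overlapped mono-nucleosome peaks, and those in 19q13.11 and 1q42.2 did not.

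The mono-nucleosome list was then laid over the di-nucleosome peaks, to ask how often the broader regions held discrete peaks of the shorter fragments. At least 1 bp was shared with a mono-nucleosome peak by 72 of the 428 di-nucleosome peaks, or 16.8% (95% Wilson interval 13.6% to 20.7%; this and all later intervals cover counting error only). A whole mono-nucleosome peak lay inside 45 of them, or 10.5% (7.95% to 13.8%). A further 28, or 6.54% (4.56% to 9.29%), overlapped none but had one within 5 kb, edge to edge. The remaining 328 peaks, 76.6%, had no mono-nucleosome peak inside or within 5 kb.

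These shares differed between the width classes. A mono-nucleosome peak was overlapped by 2 of 53 peaks under 1 kb (3.77%), by 29 of 296 peaks from 1 to under 2 kb (9.80%, 6.91% to 13.7%), by 30 of 67 from 2 to under 5 kb (44.8%, 33.5% to 56.6%) and by 11 of the 12 very broad peaks (91.7%, 64.6% to 98.5%), against 16.8% over all peaks. A whole mono-nucleosome peak was contained in 0, 13, 22 and 10 peaks of these classes. A wider peak has more room for another peak, so the number of overlaps was also divided by the length covered. There were 4.18 overlaps per 100 kb of peak under 1 kb, 9.03 from 1 to under 2 kb, 23.3 from 2 to under 5 kb and 33.1 at 5 kb or more. Whole peaks contained came to 0, 3.51, 16.1 and 25.9 per 100 kb. Mono-nucleosome peaks occurred at 0.0653 per 100 kb over the whole length of the chromosomes, each counted once. The overlaps, in contrast, include peaks across an edge and, over all classes, 8 mono-nucleosome peaks counted in 2 di-nucleosome peaks. The share of each class's bases that lay in mono-nucleosome peaks was 1.88%, 6.20%, 25.3% and 52.5% in the same order.

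**Figure D2:**
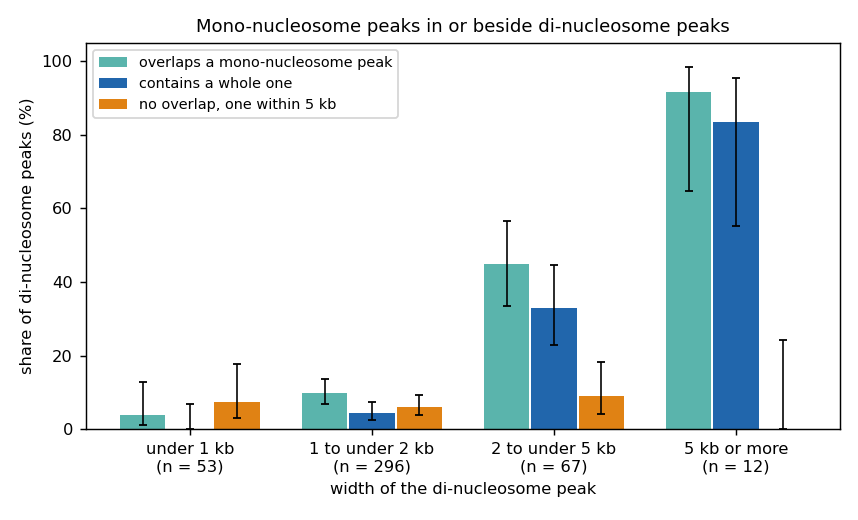
Share of di-nucleosome peaks (%) in each width class that overlap a mono-nucleosome peak, that contain a whole one, or that overlap none but have one within 5 kb; error bars are 95% Wilson intervals (counting error only). The overlapping share goes from 3.77% under 1 kb to 91.7% at 5 kb or more. The flanked share, from 0% to 8.96%, counts only peaks without overlap, so the 11 overlapping peaks of 5 kb or more could not add to it.

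The shares were next split by score within the broad and the narrow peaks. Among peaks of 2 kb or wider, 31 of 36 with a score of 100 or more overlapped a mono-nucleosome peak (86.1%), 9 of 27 with a score from 60 to under 100 did (33.3%), and 1 of 16 with a score below 60 did (6.25%, 1.11% to 28.3%). Among peaks under 2 kb the corresponding numbers were 5 of 5, 9 of 93 (9.68%) and 17 of 251 (6.77%). At scores below 60 the intervals of wide and narrow peaks overlapped (4.27% to 10.6% for the narrow), but only 16 wide peaks were counted. At scores from 60 to under 100 they did not overlap, at 18.6% to 52.2% for wide and 5.18% to 17.4% for narrow peaks. The median widths of these peaks were 2263 and 1390 bp, and a wider peak has more room for an overlap. Since peaks are not replicates, an effect of width was not tested. At 100 or more only 5 peaks were narrow. The 5 narrow peaks with a score of 100 or more lay in 1q23.3, 1q32.1, 14q11.2 and 6p22.1, the last holding 2 of them, and were from 1697 to 1995 bp wide.

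The 16 peaks that were 2 kb or wider with a score below 60 form the weak part of the broad class. They lay on 8 chromosomes, 5 of them on chromosome 19 and 3 on chromosome 1, and none in 6p22. Of all di-nucleosome peaks, chromosome 19 held 3.04%, chromosome 1 held 11.2% and 6p22 held 13.6%. The widest were the 19q13.2 peak of 5716 bp, the 19q13.11 peak of 4878 bp and the 1q42.2 peak of 4739 bp, whose nearest mono-nucleosome peaks were 17158, 12887 and 82753 bp away. On chromosome 19 as a whole 7 of the 13 di-nucleosome peaks were at least 2 kb wide, the largest share of any chromosome with more than 10 peaks, while their scores lay between 52.6 and 109. The mono-nucleosome list was broad there too: chromosome 19 held 12 of its 31 peaks of 2 kb or more, and 120 of all its 1983 peaks. Of the 13 di-nucleosome peaks on chromosome 19, 3 overlapped a mono-nucleosome peak.

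The content of the very broad peaks was examined peak by peak. Of the 12, 11 overlapped 32 mono-nucleosome peaks between them, of which 25 lay wholly inside and 7 crossed an edge. The mono-nucleosome peaks covered from 31.7% to 73.1% of each of the 11, with a median of 54.2%. They were from 525 to 5025 bp wide. Neighbours within the same di-nucleosome peak were separated by 37 to 3748 bp, with a median of 739 bp over 21 gaps. Outside the edges, 8 of the 12 had a further mono-nucleosome peak within 5 kb, and 5 had one on both sides.

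The 13480-bp peak in 16p13.3 contained 5 mono-nucleosome peaks, the most of any. They had scores of 117, 369, 91.8, 385 and 190 in order of position, were spaced 337 to 870 bp apart, and left 750 bp free at the lower end. The second 16p13.3 peak, of 7985 bp, overlapped 4, of which 3 lay inside and 1 crossed the lower edge with 67.8% of its length covered. In the 6p22.2 peak of 10058 bp 4 mono-nucleosome peaks were contained, and the one with the highest score, 282, was the last of them, from 7286 to 9513 bp after the start. The 6p22.2 peak of 6168 bp held 3 and overlapped 1 more, with mono-nucleosome scores from 50.9 to 91.3, and its own score was 239.

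The 1q21.1 peak, with the highest di-nucleosome score, contained 3 mono-nucleosome peaks of 1998, 1859 and 1770 bp, separated by 37 and 183 bp. They scored 506, 520 and 285. They ran together from 1484 to 7330 bp after the start of the peak, and no other mono-nucleosome peak lay within 1 Mb of it. In 17p13.1 the 12844-bp peak also contained 3, and the middle one scored 812, against 84.2 for the di-nucleosome peak. The last of them ended 9755 bp after the start of the peak, and none lay in the remainder.

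In 5q35.3 the 7003-bp peak contained a single mono-nucleosome peak of 5025 bp with a score of 822, which ran from 1966 to 6990 bp after the start. The second 5q35.3 peak contained 1 and shared 503 bp with another of 1701 bp that crossed its lower edge. The 5866-bp peak in 6p22.2 overlapped 1 mono-nucleosome peak, of 3751 bp and score 589, which crossed the upper edge and was covered to 99.1%. The 6p22.1 peak of 5250 bp overlapped 3, with 1 wholly inside. The 11q12.1 peak contained 1 and overlapped another at its upper edge, 3748 bp away from the first. In 7 of the 11 peaks the highest mono-nucleosome score was above the di-nucleosome score, and in 4, in 1q21.1, 16p13.3 (7985 bp), 6p22.2 (6168 bp) and 6p22.1, it was below.

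**Figure D3:**
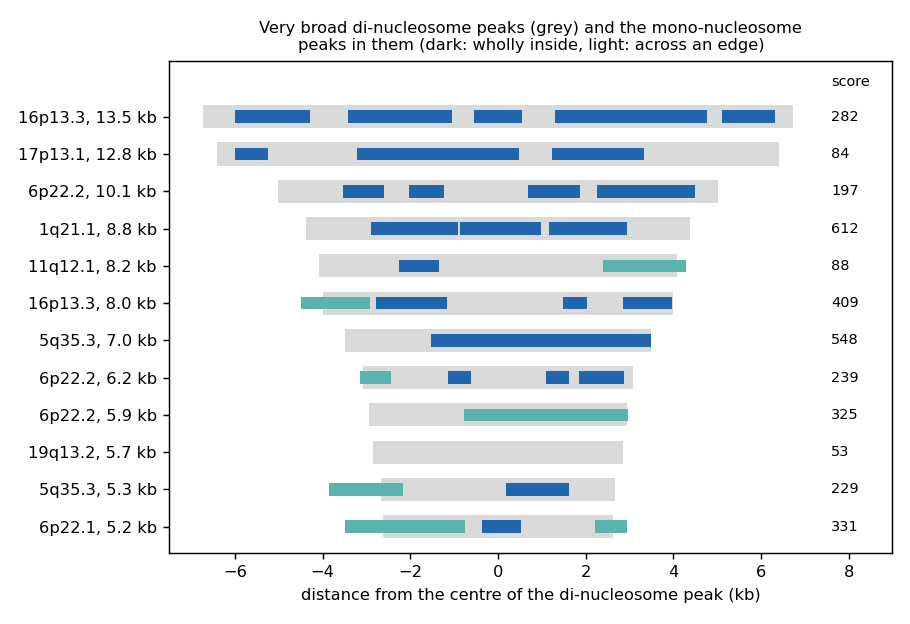
The 12 very broad di-nucleosome peaks as grey bars, ordered by width and aligned at their centres (distance in kb), with the overlapping mono-nucleosome peaks drawn to scale in dark blue where wholly inside and in light green where they cross an edge; numbers at the right are the di-nucleosome scores. The peak in 16p13.3 of 13.5 kb holds 5 mono-nucleosome peaks and the one in 19q13.2 holds none.

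Over the whole list, 112 overlaps linked 72 di-nucleosome peaks to 104 mono-nucleosome peaks. A single mono-nucleosome peak was overlapped by 45 di-nucleosome peaks, 2 by 19, 3 by 4, 4 by 3 and 5 by 1. Contained peaks numbered 68: 32 di-nucleosome peaks held 1, 6 held 2, 5 held 3, and 1 each held 4 and 5. In 8 cases a mono-nucleosome peak reached into 2 di-nucleosome peaks. The reverse nesting, a di-nucleosome peak lying wholly inside a mono-nucleosome peak, was seen 4 times: in 6p22.2 (1714 bp, score 66.1), in 6p22.1 for 2 peaks (1085 bp, score 58.4, and 824 bp, score 50.4) and in 5q35.3 (1017 bp, score 86.4).

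The simplest case was a di-nucleosome peak and a mono-nucleosome peak that overlapped only each other, of which there were 37 pairs. The di-nucleosome peak was wider by a median factor of 1.97 (range 0.52 to 4.19), with median widths of 2003 and 923 bp. The mono-nucleosome peak lay wholly inside in 22 of the 37. The centres were a median of 283 bp apart, and 193 bp apart in the 22 contained pairs, which was 17.1% of the distance from centre to edge. The mono-nucleosome score was the higher of the pair in 19 of 37. Spearman's rho between the paired scores was 0.22, given as a description, since the pairs share their libraries.

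Mono-nucleosome peaks also lay beside di-nucleosome peaks without touching them. Of the 28 flanked peaks, 14 had a neighbour on the lower side only, 10 on the upper side only, and 4 on both; peaks have no strand, so the sides are those of the coordinates. The closest neighbour was 58 bp away, beside a peak of 1674 bp in 6p22.1 (chr6:27598149-27599822, score 65.9), and the median distance of the 28 was 1391 bp. They lay on 8 chromosomes and 14 were on chromosome 6. Flanking was also frequent where there was overlap: 53 of the 72 overlapping peaks had a further mono-nucleosome peak within 5 kb outside their edges, and 21 had one on both sides. Over the 356 peaks without overlap, the 28 flanked peaks included, the median distance to the nearest mono-nucleosome peak was 313 kb. Of the 356, 45 had one within 20 kb and 263 had none within 100 kb. Mono-nucleosome peaks are sparse, at 0.0653 per 100 kb of the chromosomes' length, and no distance expected at that density was computed.

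**Figure D4:**
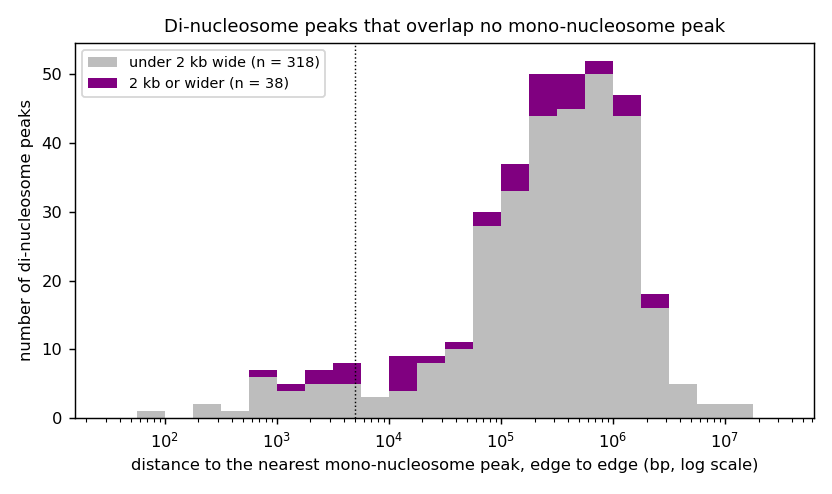
Distance from each of the 356 di-nucleosome peaks without overlap to the nearest mono-nucleosome peak (bp, log scale; edge to edge), as numbers of peaks stacked by width; the dotted line is at 5 kb. Most peaks lie beyond 100 kb (263 of 356), and 28 lie at or below 5 kb.

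The 20 highest di-nucleosome scores, from 152 to 612, were examined in the same way: 19 of these peaks overlapped a mono-nucleosome peak, 16 contained one, and 19 were 2 kb or wider. Besides 9 of the very broad peaks, they included 4 narrower ones in 6p22.1. These were chr6:27558842-27562145 (3304 bp, score 206), chr6:28768349-28770475 (2127 bp, score 178), chr6:28949043-28951502 (2460 bp, score 154) and chr6:27180273-27184193 (3921 bp, score 153), each of which contained a mono-nucleosome peak. Chromosome 14 gave 2 in 14q11.2, of 2020 bp (chr14:21150757-21152776, score 232) and 1697 bp (chr14:21098160-21099856, score 152), the second being the only one of the 20 under 2 kb. The others were a 3780-bp peak in 1q23.3 (chr1:161368867-161372646, score 193), a 2607-bp peak in 17q25.1 (chr17:73028783-73031389, score 180), a 2616-bp peak in 12q24.31 (chr12:125397640-125400255, score 171) and 2 in 17p13.1. Of the 17p13.1 peaks, one of 3892 bp (chr17:8088869-8092760, score 168) overlapped the top-scoring mono-nucleosome peak of all, at 967. A neighbouring peak of 3667 bp in 17p13.1 (chr17:8084944-8088610, score 123), outside the 20, was the only peak under 5 kb that contained 3 mono-nucleosome peaks.

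Of the 41 di-nucleosome peaks with a score of 100 or more, 5 overlapped no mono-nucleosome peak. The highest was a 3403-bp peak in 17p13.1 (chr17:8114543-8117945, score 161), 3386 bp from the nearest mono-nucleosome peak on its upper side. It was the only one without overlap among the 20 highest scores. Another, in 6p22.1 (chr6:27257946-27260283, 2338 bp, score 140), had mono-nucleosome peaks 1816 bp below and 1091 bp above. A further 2 in 6p22.1, of 2603 and 2193 bp with scores of 107 and 106, had one 919 and 2678 bp away. The fifth, in 5q32 (chr5:149034197-149037146, 2950 bp, score 113), was 687607 bp from the nearest.

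Some di-nucleosome peaks followed each other closely. Edges of neighbouring peaks lay under 1 kb apart in 20 of 405 cases, with gaps from 2 to 734 bp and a median of 154 bp, whereas 310 gaps were over 100 kb. The 20 gaps joined 32 peaks into 12 strings on 5 chromosomes, 6 of them on chromosome 6. The longest string, in 6p22.2 (chr6:26303715-26332484), consisted of 5 peaks of 4718, 5866, 10058, 4469 and 3004 bp, with gaps of 308, 193, 115 and 39 bp. It spanned 28.8 kb, of which 97.7% lay in di-nucleosome peaks. Its 5 peaks scored from 103 to 325, and 8 mono-nucleosome peaks covered 57.8% of it. Shorter strings were found in 17p13.1 (4 peaks over 9.61 kb, chr17:8022597-8032205) and elsewhere in 6p22.2 (3 peaks over 9.52 kb, with gaps of 48 and 2 bp). In 11 of the 12 strings at least 1 mono-nucleosome peak was present, and 27 of the 32 peaks overlapped one (84.4%, 68.2% to 93.1%), against 45 of the 396 other peaks (11.4%, 8.60% to 14.9%). Peaks of a string adjoin and can share a mono-nucleosome peak, whereas the interval treats all 32 as separate. The string without one, in 6p22.1, had 2 peaks over 4.25 kb with scores of 55.8 and 106. The 32 peaks of strings were also wider than the 396 others, with median widths of 2164 and 1275 bp. Scores of 100 or more were held by 17 of the 32 and by 24 of the 396. All strings except that in 17q12 lay in bands with at least 5 di-nucleosome peaks. Over all such bands, string peaks included, 60 of 118 peaks overlapped a mono-nucleosome peak. Closeness was therefore not separated from width, score or place.

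**Figure D5:**
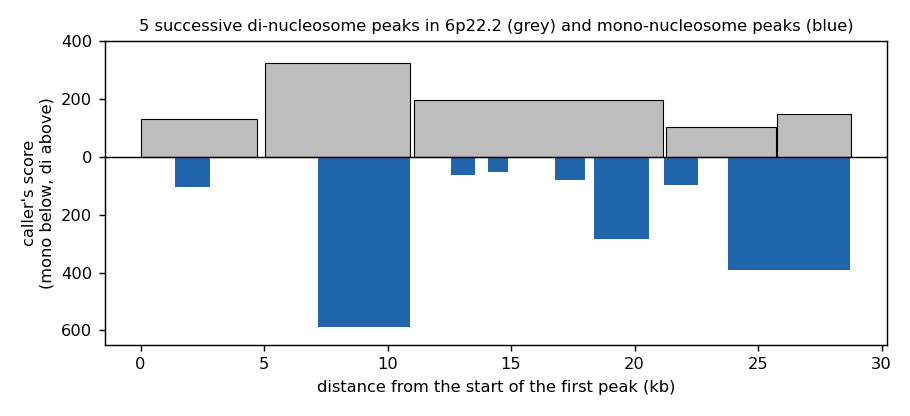
The longest string of di-nucleosome peaks, in 6p22.2: distance from the start of its first peak (kb) against the caller's score, with the 5 di-nucleosome peaks upward in grey and the 8 mono-nucleosome peaks downward in blue. The di-nucleosome peaks leave gaps of 39 to 308 bp, and the 2 highest mono-nucleosome scores, 589 and 392, lie in the second peak and across the last 2.

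Most of the overlaps fell in a few chromosome bands. The 428 peaks lay in 238 of the 851 bands, and 167 bands held 1 peak each. At least 5 were found in each of 10 bands: 44 in 6p22.1, 12 each in 6p22.2 and 17p13.1, 11 in 1q23.3, 8 each in 5q35.3 and Xq25, 6 each in 14q11.2, 6q15 and Xq21.1, and 5 in 16p13.3. As background, 6p22 carries the main cluster of histone genes and a large cluster of transfer RNA genes, and clusters of transfer RNA genes are also known in 1q23.3, 5q35.3, 14q11.2, 16p13.3 and 17p13.1; no gene was placed against a peak here. These 10 bands had 118 peaks, of which 60 overlapped a mono-nucleosome peak (50.8%), and the other bands had 310, of which 12 did (3.87%). The 2 groups also differed in median score, at 68.5 and 55.6, and in median width, at 1736 and 1216 bp. Place was therefore not separated from score or width. Within the 10 the overlap was uneven. It was seen in 26 of 44 peaks in 6p22.1, 9 of 12 in 6p22.2, 7 of 12 in 17p13.1, 5 of 11 in 1q23.3, and 4 each of the 8, 6 and 5 in 5q35.3, 14q11.2 and 16p13.3, but in 1 of 8 in Xq25 and in none of the 6 in 6q15 or the 6 in Xq21.1. The peaks in 6q15 scored at most 53.6.

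Chromosome 6 shows the contrast within a single chromosome. Its 99 peaks comprised 58 in 6p22 and 41 elsewhere. In 6p22 the median width was 1810 bp, the median score 74.0, and 35 of 58 peaks overlapped a mono-nucleosome peak (60.3%, 47.5% to 71.9%), with 14 more flanked by one. Elsewhere on the chromosome the median width was 1174 bp, the median score 53.1 and the highest score 85.8. None of these 41 overlapped or was flanked (0%, upper bound 8.57%). At least 2 kb was reached by 79 of all 428 peaks (18.5%). The share was 28.3% on chromosome 6 (28 of 99), 38.5% on 17 (10 of 26) and 50% on 16 (5 of 10), 20.8% on chromosome 1 (10 of 48), which was near that of all peaks, and 2.94% on chromosome 2 (1 of 34) and 7.84% on X (4 of 51). On 13 of the 23 chromosomes, with 109 peaks between them, no di-nucleosome peak overlapped a mono-nucleosome peak. On X 1 of 51 did, and none contained one.

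Light Giemsa bands, which are on the whole richer in genes, held 222 of the 428 midpoints (51.9%, 47.1% to 56.6%) and made up 42.4% of the length of these chromosomes. The share was 54.7% under 1 kb, 49.3% from 1 to under 2 kb, 56.7% from 2 to under 5 kb and 9 of 12 at 5 kb or more. The intervals of the 4 classes overlapped (46.8% to 91.1% for the very broad peaks). For the mono-nucleosome peaks it was 55.2% (53.0% to 57.4%).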

How the data were processed

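HA ChIP and input DNA of di-nucleosome and mono-nucleosome size from induced cells were each sequenced as 1 library. Per the labels, the submitters' processing notes name CASAVA 1.4, BWA and the build hg19; the peak names show that the authors called peaks with MACS, whose version and settings are not given in the sources used here. The deposited lists give position and score, with no counts, so depth is unknown; intervals are over peaks (Wilson for shares, ranks of the widths for the median). Starts were converted to count from 1. The chromosome lengths of GenomeInfoDb 1.38.1 and the hg19 bands of circlize were used; the gene and promoter tables, of another build, were not.

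Width classes, very broad peaks (5 kb or more), overlap (at least 1 bp), containment (whole mono-nucleosome peak) and flanking (within 5 kb) were counted with Python 3.11.15, pandas 2.3.3 and scipy 1.17.1 and plotted with matplotlib 3.10.9. The interval steps were checked on 400 simulated peaks. Named peaks were those of 5 kb or more, the 5 on each side of 5 kb, the 20 highest scores, the 5 with most contained peaks and the 3 narrowest. Others (strings, bands, chromosome 6 and 19, strong peaks without overlap) were chosen after their values were seen. Members and thresholds were chosen with earlier results of these data known. The LSF motif, GC content and genes near peaks were planned and not run.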

Additional observations from a re-analysis of the deposited data

How the results depend on the processing

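Overlap with the mono-nucleosome list was found for 16.8% of the peaks. The share was 14.7% when 50% of the mono-nucleosome peak had to be covered, and 15.4% when only mono-nucleosome peaks at or above their median score counted. Among the 214 di-nucleosome peaks at or above the median score it was 27.6%, the share containing a whole peak was 19.2% in place of 10.5%, the median width was 1630 bp in place of 1294 bp, and rho between width and score was 0.63 in place of 0.47. Containment was 14.7% when only the midpoint had to lie inside. The flanked share was 2.57% within 1 kb and 10.5% within 20 kb. Very broad peaks numbered 12 at 5 kb, 16 at 4 kb and 28 at 3 kb; after peaks under 1 kb apart were merged 16 of 408 were 5 kb or wider. No paired analysis was possible because no condition had a second library, and no library could be left out. The unknown depth limits every count: a missing peak was not told apart from too little sequencing.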

Other observations

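The row left out of all counts scored 275 and placed a peak at 145392941 to 145401717 on chromosome 11, which ends at 135006516 in hg19. Its start and end are those of the 1q21.1 peak, whose score is 612. The width of any chromosome 11 peak that this row stands for is therefore unknown. As listed, it would bring the rows of 5 kb or wider to 13.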
